A study of Drosophila melanogaster with 2 samples.

Results

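Clusters of close peaks are stretches of the genome where 3 or more peak summits of a chromatin immunoprecipitation sequencing (ChIP-seq) experiment follow each other at short distance. They were found in whole larvae of Drosophila melanogaster that carried an insertion that expresses CG32264 with green fluorescent protein (GFP) at the C-terminal end. The larvae were of both sexes, in the wandering stage of the third instar, and an antibody against GFP was used. There was 1 group with 2 biological replicates, numbered 1 and 3 in the labels, so no treated or control condition stands beside it. Whole larvae mix all tissues, so a cluster may join sites that are bound in different cells. A control library was not analysed here, and reads per library are unknown from peak lists.

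The clusters were chosen by measured values, the summit positions of the authors' optimal set of 2546 peaks on genome build dm6. That set had itself been kept by an irreproducible discovery rate (IDR) step, which compares the ranks of peaks between replicates. Summits were sorted along each chromosome arm, neighbours at most 5000 bp apart were joined, and chains of 3 or more were kept. This gave 525 peaks in 145 clusters, 20.6% of all peaks. A further 630 peaks stood in 315 pairs, and 1391 peaks, 54.6%, stood alone with no other summit within 5000 bp. The number and closeness of summits in a cluster follow from this rule and are given as description. No comparison was tested, since peaks of 1 cluster share a locus and the design holds 1 group.

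A transcription factor or cofactor can occupy several enhancers and promoters of the same gene. Genes that control development in flies often carry many such elements, spread over long introns and flanking DNA. Groups of nearby binding regions are also found where many unrelated proteins give ChIP signal in open chromatin. CG32264 belongs to the phosphatase and actin regulator family, whose members are known in mammals to bind actin and protein phosphatase 1, and is not a classical sequence-specific factor.

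The DNA under selected summits is shown to set the summits of a cluster beside each other. Each window holds a summit and 100 bases on either side, lies outside annotated exons, and was read from the RefSeq sequence of Release 6 (dm6), plus strand, counted from 1. Capitals mark a match on either strand to any of 7 motifs. The GAGA element was searched as GAGAG. The DNA replication-related element was searched as TATCGATA. A GATA site was AGATAA, and its other form was TGATAA. The E-box was CACGTG, bound by helix-loop-helix factors. The AP-1 site was TGAGTCA, and the homeodomain core was the run TAATTA. The element of the factor M1BP was searched as GGTCACACT. Matches may overlap. The second summit of the ush cluster is shown as the strongest of all cluster summits, and summits 2 and 3 of the Eip75B cluster as a strong and a weak neighbour. Summits 5 and 6 of the Raf cluster are the strongest of that cluster and the window with the longest run of GA repeats among those shown. Summits 2 and 3 of the Mnt cluster carry several GAGA elements at low signal.
ush summit 2, chr2L:480996-481196: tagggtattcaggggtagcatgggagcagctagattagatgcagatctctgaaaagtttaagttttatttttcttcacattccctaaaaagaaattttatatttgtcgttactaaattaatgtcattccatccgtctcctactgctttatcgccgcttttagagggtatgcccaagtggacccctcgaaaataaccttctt
Eip75B summit 2, chr3L:18011823-18012023: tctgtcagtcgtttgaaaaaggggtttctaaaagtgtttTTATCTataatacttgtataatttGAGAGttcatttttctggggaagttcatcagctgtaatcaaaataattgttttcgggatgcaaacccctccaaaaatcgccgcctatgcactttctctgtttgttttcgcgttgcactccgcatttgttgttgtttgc
Eip75B summit 3, chr3L:18016619-18016819: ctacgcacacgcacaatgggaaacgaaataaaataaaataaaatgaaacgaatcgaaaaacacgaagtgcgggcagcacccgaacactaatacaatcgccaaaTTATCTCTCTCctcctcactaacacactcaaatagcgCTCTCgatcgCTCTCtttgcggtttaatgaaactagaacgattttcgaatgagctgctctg
Raf summit 5, chrX:2300604-2300804: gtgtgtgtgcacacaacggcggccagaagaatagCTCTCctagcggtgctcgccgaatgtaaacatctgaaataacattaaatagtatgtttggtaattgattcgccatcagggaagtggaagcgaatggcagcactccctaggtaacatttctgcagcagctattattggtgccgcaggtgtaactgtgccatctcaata
Raf summit 6, chrX:2302246-2302446: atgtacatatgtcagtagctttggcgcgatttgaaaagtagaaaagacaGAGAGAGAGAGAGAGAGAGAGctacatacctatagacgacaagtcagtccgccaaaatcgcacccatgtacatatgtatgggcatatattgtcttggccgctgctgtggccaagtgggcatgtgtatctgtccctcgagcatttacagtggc
Mnt summit 2, chrX:3677724-3677924: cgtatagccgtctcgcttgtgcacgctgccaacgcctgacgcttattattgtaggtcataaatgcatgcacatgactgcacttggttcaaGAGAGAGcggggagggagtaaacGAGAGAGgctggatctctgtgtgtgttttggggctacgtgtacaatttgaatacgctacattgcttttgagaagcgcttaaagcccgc
Mnt summit 3, chrX:3680060-3680260: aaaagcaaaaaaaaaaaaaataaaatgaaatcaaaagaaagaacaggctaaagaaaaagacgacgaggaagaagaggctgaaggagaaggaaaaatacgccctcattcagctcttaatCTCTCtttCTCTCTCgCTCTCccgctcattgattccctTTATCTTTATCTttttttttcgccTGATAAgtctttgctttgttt

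The window at the strongest summit, in ush, held no match to any of the 7 motifs, and that at Eip75B summit 2, with a signal of 540, held 1 GAGA element and 1 GATA site. Eip75B summit 3, with a signal of 72.8, held 5 matches, and Raf summit 6, with a signal of 100.4, held 9 overlapping GAGA elements against 1 at Raf summit 5, with a signal of 411. These windows were picked for their matches and signals, so they show no relation between them, and in the cluster near COX7AL2 summit 4, with a signal of 562, held 4 matches against 1 at summit 2, with a signal of 79.1. A match is a description of letters and not a bound site, and a window without one says nothing about a factor. Over all windows, GAGAG was found at 28.6% of the 525 cluster summits and 26.8% of the 1391 peaks alone, beside 27.6% of all peaks and 24.3% of the windows of the same length centred on annotated gene starts, with similar shares in clusters and alone.

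The clusters were short, and most had few summits. Of the 145 clusters, 96 had 3 summits, 29 had 4 and 20 had 5 to 9. The distance from the first to the last summit ran from 743 bp to 19465 bp with a median of 4739 bp, and the middle of the distribution lay between 3113 bp and 6659 bp (quartiles). Together the spans covered 0.583% of the 6 chromosome arms. The 380 gaps between neighbouring summits had a median of 1766.5 bp. The values nearest the limit were gaps of 4998 bp beside lncRNA:CR45668, 4992 bp in spen and 4941 bp in Mnt on the inside. On the outside, gaps of 5005 bp at jumu, 5033 bp between lute and sds22 and 5067 bp between Elp6 and Lip3 each kept a pair of summits apart from a further one.

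Some neighbouring summits lay within the length of the sheared fragments. Chromatin fragments were 200 to 800 bp long per the labels, and 85 of the 380 gaps, 22.4%, were at most 800 bp. In 41 pairs of neighbours, 199 bp to 244 bp apart, both summits fell on the same peak of at least 1 replicate list. There were 39 such pairs in replicate 1 and 40 in replicate 3, and 38 pairs shared a peak in each. Of the 145 clusters, 121 touched 3 or more distinct peaks of the list of replicate 1, 123 of replicate 3, and 120 of both. These counts took the whole lists of 30000 peaks, weak ones included, so they do not show agreement of the replicates. With only the top 2546 peaks of each list, 67 clusters had 3 or more summits that overlapped a peak of both.

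**Figure D1:**
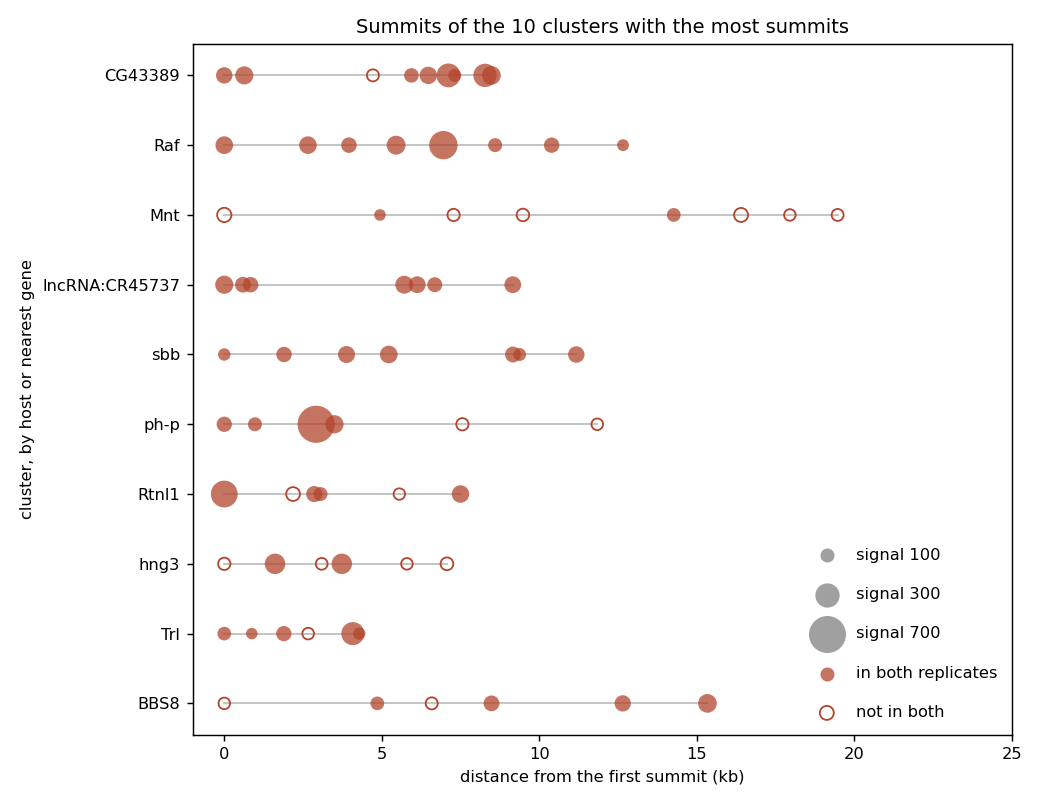
Position of each summit in the 10 clusters with the most summits, as the distance in kb from the first summit, with circle area in proportion to the authors' signal value. Filled circles overlap a top peak of both replicate lists and open circles do not; Mnt is the longest, and ph-p holds 1 summit far above its neighbours.

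Peaks in clusters lay at gene starts less often than peaks alone. A summit within 500 bp of an annotated start was counted at a promoter, and 176 cluster peaks were, 33.5% (exact 95% interval for counting 29.5% to 37.7%), against 737 peaks alone, 53.0% (50.3% to 55.6%). The share over all peaks was 47.1%. The difference was -19.5 percentage points, and it was negative under every alternative tried. The shares were 27.3% in clusters of 5 to 9, 26.7% in clusters of 4, 38.9% in clusters of 3, 45.4% in pairs and 53.0% alone. The median distance to the nearest start was 1107 bp for cluster peaks and 408 bp for peaks alone, while summits more than 5000 bp from any start made up 14.9% of cluster peaks and 15.5% of peaks alone.

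Introns held 320 cluster summits, 61.0%, and 683 summits alone, 49.1%, beside 52.7% of all peaks. Intergenic DNA held 29.3% of cluster summits and 37.0% of summits alone. Among summits away from promoters the intron share was 73.9% of 349 in clusters and 72.5% of 654 alone. The overall difference in intron share was 11.9 points, and it was -1.42 points when only the stronger 50% of peaks were chained. Exons were rare places for cluster summits, with 30 in 5 prime UTRs, 5 in 3 prime UTRs, 16 in non-coding exons and 0 in coding exons. The 1391 peaks alone had 134 in 5 prime UTRs, 23 in 3 prime UTRs, 35 in non-coding exons and 2 in coding exons.

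**Figure D2:**
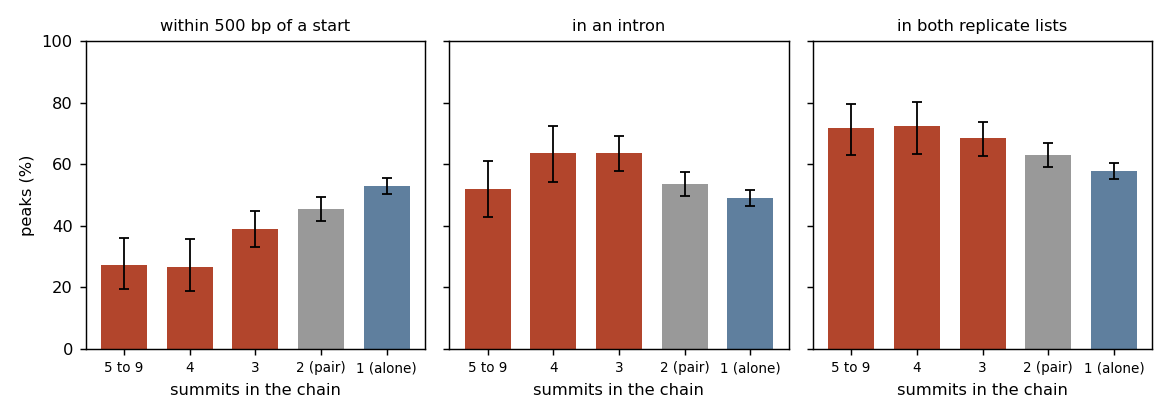
Percent of peaks within 500 bp of a start, in an intron and overlapping a top peak of both replicate lists, by number of summits in the chain, with exact 95% intervals for counting error. The promoter share is 27.3% in chains of 5 to 9 and 53.0% in peaks alone, and the share in both lists is 71.9% in chains of 5 to 9 and 57.7% in peaks alone.

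Clusters differed in how they lay on genes. All summits were at promoters in 18 clusters, some in 80 and none in 47, and 41 clusters had no start anywhere in their span. A single protein-coding gene held all summits of 62 clusters, 42.8%, and most summits of 94, while in 23 no summit lay in a protein-coding gene. The 114 distinct host genes had a median length of 17438 bp, against 13855 bp for the 750 genes that held a peak alone and 2166 bp for all 13945 protein-coding genes. Where genes tied for most summits the longer was taken as host, so the greater length of hosts is in part built in. By arm, clusters held 25.8% of the peaks of 2L, 24.5% of 3L, 21.2% of X, 17.6% of 3R and 14.2% of 2R, and 0 of the 8 peaks of chromosome 4.

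Peaks in clusters had slightly higher signal than peaks alone. The signal is the authors' own value in the optimal set, which also ranked the peaks, so it is given as description. Its median was 98.4 in clusters (quartiles 75.5 to 141) and 87.6 alone (71.6 to 126), a ratio of 1.12, which was 1.01 when only the stronger 50% of peaks were chained. The lowest values were 61.2 in clusters and 61.1 alone, and the highest were 761 in clusters, in ush, and 956 alone, so the ranges overlapped almost entirely. Among the strongest 10% of all peaks were 58 cluster peaks, 11.0%, and 131 peaks alone, 9.42%, beside 9.98% over all peaks. In the replicates' own lists, the median signal of the overlapping peak was 60.3 in clusters and 53.6 alone in replicate 1, and 47.1 in clusters and 36.8 alone in replicate 3. The higher signal was seen away from promoters, with a median of 99.2 in clusters and 86.8 alone, and at promoters, with 97.7 in clusters and 87.9 alone.

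Cluster peaks were found in both replicates more often than peaks alone in the optimal set. The size of this difference depended on the processing, and its sign on the list and measure used. A peak counted as found in both when it overlapped one of the top 2546 peaks of each replicate list by 1 bp or more. This held for 368 cluster peaks, 70.1% (66.0% to 74.0%), and 803 peaks alone, 57.7% (55.1% to 60.3%), beside 61.6% of all peaks. The top list of replicate 1 held 86.9% of cluster peaks and 85.3% of peaks alone, and that of replicate 3 held 81.3% of cluster peaks and 69.3% of peaks alone. The difference in both lists was 12.4 points. It was 7.61 points with only the strongest summit kept within 800 bp, chosen after seeing the data, 6.68 points when an overlap of 50% of the peak was asked for, and 3.64 points when only the stronger 50% of peaks were chained. Clusters rebuilt from the top list of replicate 3 gave -1.29 points, with 61.1% of 607 cluster peaks and 62.4% of 1261 peaks alone found in replicate 1. Clusters rebuilt from the top list of replicate 1 gave 11.2 points. Both values count peaks of 1 replicate found in the other. They thus differ from the 12.4 points in measure and in peaks.

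The clusters themselves were in part specific to 1 replicate list. Clusters were built in the same way from the top list of each replicate, not from its whole list. Of the 145, 64 clusters, 44.1%, overlapped such a cluster of each replicate. A further 34 overlapped one of replicate 1 only, 30 of replicate 3 only and 17 of neither. The lower promoter share was present in each list, at 35.6% in clusters and 52.1% alone in replicate 1 and 35.1% in clusters and 54.6% alone in replicate 3. Within clusters the strongest summit was commonly much higher than the weakest, by a median ratio of 2.06, with a range of 1.03 to 10.2. The strongest summit was the same in both replicates in 94 clusters, 64.8%. Summits on 1 shared replicate peak tied in this count, and the first was taken. With 38 pairs of neighbours sharing a peak in each list, part of this agreement is built in. The agreement due to chance was not measured. Strongest summits were at promoters in 33.1% and the other cluster summits in 33.7%. Of the strongest summits 93.8% were in both top lists, against 61.1% of the others. The strongest were picked by signal, and signal also sets the top lists, so this contrast is no separate result.

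Weaker peaks were also denser near clusters. The list made from both replicates before the IDR step held 27454 peaks outside the optimal set on the 6 arms, 2.05 per 10000 bp. Within 5000 bp of a summit there were 4.99 per 10000 bp for cluster summits and 3.98 per 10000 bp for summits alone, with peaks shared by neighbouring cluster summits counted at each. Inside the cluster spans lay 379 such peaks, a median of 2 per cluster.

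The cluster with the highest single summit lay at ush, which encodes a cofactor of GATA transcription factors, and began near cbt, which encodes a zinc finger transcription factor. Its 4 summits, over 10656 bp of 2L from 480073 to 490729, had signals of 230.2, 761, 169.5 and 124. In replicate 1 the same summits had 136, 534, 82.8 and 46.8, and in replicate 3 they had 96.4, 271, 84.6 and 73.1. The second summit, 1408 bp from the start of cbt and in an intron of ush, ranked 5 in replicate 1 and 8 in replicate 3, and all 4 summits were in both top lists.

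Chromatin regulators help keep developmental genes silent or active. Of the 27 listed, 3 had 3 or more summits of 1 cluster, 11.1%, beside 0.660% of all protein-coding genes. At ph-p, a subunit of Polycomb repressive complex 1, 6 summits spread over 11837 bp of X, and their signals were 119.8, 99.7, 705, 170, 77.4 and 68.8. The third, 483 bp from a start of ph-p, ranked 10 in replicate 1 and 6 in replicate 3, while the fifth and sixth, towards D2hgdh and Pgd, were not in both lists. At osa, a subunit of a chromatin remodelling complex, the 4 summits had 114, 78.1, 169.7 and 681, and all lay nearest to starts of non-coding RNAs, lncRNA:CR46036 and lncRNA:CR46035.

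Trl encodes GAGA factor, which binds GA-rich DNA, and its 6 summits fell within 4283 bp of 3L. Their signals were 95.6, 67.9, 119, 69.4, 271 and 77.9. In replicate 1 the values were 44.1, 45.1, 80.3, no overlapping peak, 176 and 176, and in replicate 3 they were 49.3, 51.4, 57.3, 46.4, 102.3 and 102.3. The last 2 summits thus took the same peak in each replicate.

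The cluster in Mnt, whose protein competes with Myc for their partner Max, was the longest, and its replicates differed along it. Its 8 summits over 19465 bp of X lay in introns of the gene and had signals from 67.9 to 104. In replicate 1 they had 80.1, 39.3, 31.3, 30.2, 42.6, 31.4, 37.9 and 51.2, and in replicate 3 they had 25.02, 43.4, 48.04, 47.3, 53.4, 67.3, 23.7 and 21.9. Summits 1, 7 and 8 had the better rank in replicate 1, and summits 2 to 6 in replicate 3. Of the 8, summits 2 and 5 were in both top lists.

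**Figure D3:**
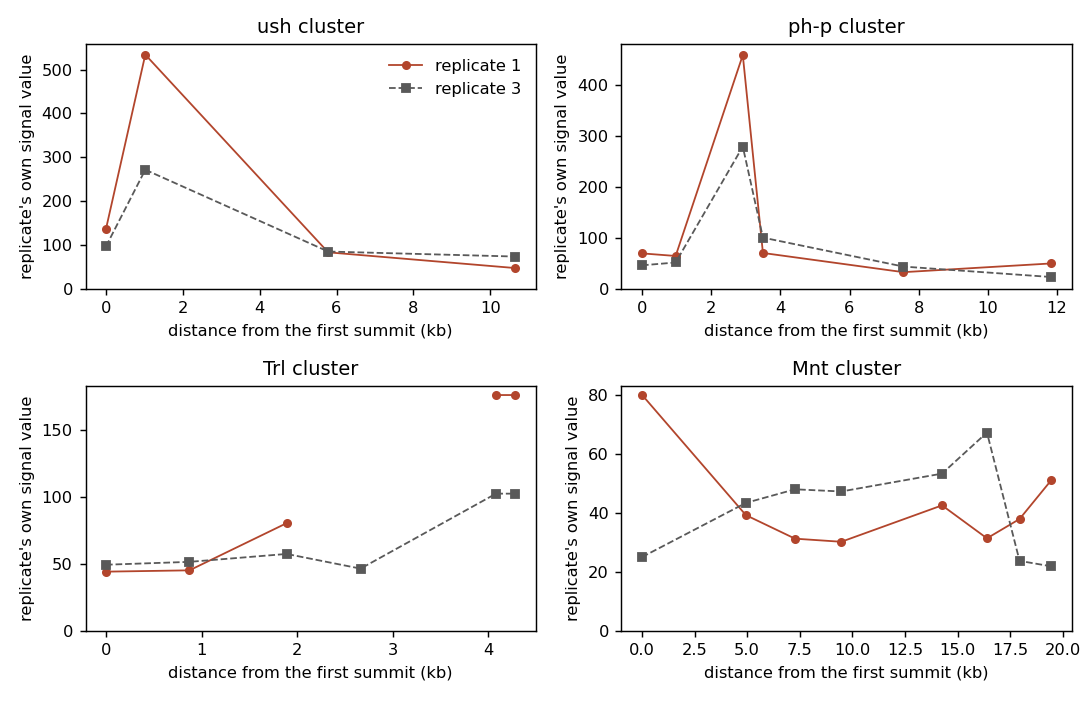
Signal of the overlapping peak in replicate 1 and in replicate 3, each on its own list's scale, by distance in kb from the first summit, for the clusters at ush, ph-p, Trl and Mnt. The replicates share their highest summit in ush, ph-p and Trl, while in Mnt the highest is the first summit in replicate 1, at 80.1, and the sixth in replicate 3, at 67.3; the gap in the Trl line is a summit with no replicate 1 peak.

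Raf, the kinase that links Ras to the MAP kinase cascade, held 7 of the 8 summits of its cluster over 12654 bp of X. The signals were 160, 158, 123, 183, 411, 100.4, 121 and 72.2, the fifth standing highest in both replicates, with 234 in replicate 1 and 169.6 in replicate 3. All 8 were in both top lists. In sbb, which encodes a transcriptional corepressor, 7 summits over 11172 bp of 2R lay in introns, between 12798 bp and 22074 bp from the nearest start, with signals from 78.8 to 159, and all 7 were in both top lists. Near lncRNA:CR45737 on 3L 7 intergenic summits had signals from 114.8 to 168 and were all in both lists as well.

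The cluster with the most summits, 9 over 8476 bp of 3L, was named by CG43389 and had signals from 73.9 to 290. CG43389 held 2 of the 9 summits, and 6 were intergenic. The sixth and seventh summits of this cluster shared 1 peak in each replicate, and so did the eighth and ninth in replicate 3. Rtnl1, a reticulon that shapes the endoplasmic reticulum, held 6 summits from 66.9 to 368. The 6 intergenic summits near hng3 had signals from 68.8 to 214, and 2 were in both lists. The 6 summits around BBS8, a gene of the ciliary BBSome, ran over 15333 bp and several genes, and the strongest, at 178, stood 979 bp from a start of ex, which encodes an upstream component of the Hippo pathway.

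Long clusters were of several kinds. Around Coq4 on 3L, 5 summits ran over 12919 bp of closely spaced genes, from blot to CG32176, and had signals of 85.3, 69.2, 132, 70.3 and 252. By contrast, the cluster at heca, which encodes the Headcase protein of imaginal development, ran over 12727 bp of 3R from intergenic DNA into an intron. Its 6 summits had 203, 80.1, 106, 105, 66.7 and 64.3, so the strongest was the first, in intergenic DNA, and 5 were in both top lists. At lncRNA:CR45668 on X the 4 summits had 111, 65.4, 206 and 248 over 12899 bp, and the last stood 651 bp from a start of Act5C, a cytoplasmic actin gene.

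Other clusters stood out by strong summits or by a high weakest one. At Atat, the alpha-tubulin acetyltransferase gene, the 3 summits had 171, 371 and 322, with the highest weakest summit of any cluster. At lncRNA:CR44619 on X the 4 summits had 342, 649, 187 and 154. The 4 intergenic summits nearest to COX7AL2 and CG31668 had 309, 79.1, 124 and 562. At neb, which encodes a kinesin, the 3 summits had 219, 139.7 and 239.9, and at lncRNA:CR43785, in intergenic DNA of 3L, they had 143, 122 and 155. All summits of these 5 clusters were in both top lists except the second near COX7AL2, which ranked 8151 in replicate 1 and 740 in replicate 3.

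The shortest cluster was 743 bp long, in an intron of fz2, a receptor for Wnt ligands, with signals of 114, 64.1 and 86.6. Its first 2 summits took the same peak in replicate 1, with a signal of 70.1, and in replicate 3, with 43.1. The clusters at bin3, with 90.9, 83.2 and 157 over 951 bp, and at Hyls1 and chif, with 100.5, 266 and 95.7 over 965 bp, likewise each held a pair of summits on 1 peak of each replicate. These 3 clusters touched 2 distinct peaks in each replicate list.

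The ecdysone response, the steroid hormone programme that starts metamorphosis at this stage, had 4 of 23 listed genes with 3 or more summits of 1 cluster in or beside the gene. Over all protein-coding genes this held for 92 of 13945, 0.660%. Any peak was held by 69.6% of the listed genes and 14.0% of all. Among genes with a peak, 25% of the listed and 4.70% of all had 3 or more summits of 1 cluster. The 4 listed genes were EcR, the ecdysone receptor, Eip74EF, an ETS factor, and the nuclear receptors Eip75B and Hr4. Eip75B had 4 intron summits of 193, 540, 72.8 and 99.4, the second ranking 27 in replicate 1 and 20 in replicate 3, and all 4 were in both lists. Hr4 had 5 with 77.6, 80.1, 242, 120.3 and 352, and the last 3 were in both lists. EcR and Eip74EF were weaker, with 79.4, 92.6 and 89.0 in EcR and 80.3, 63.5 and 89.4 in Eip74EF.

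Signalling genes had 5 of 57 with 3 or more summits of 1 cluster, which were nkd, an inhibitor of Wnt signalling, sgg, the kinase GSK-3, fz2, spen and ds, an atypical cadherin of the Fat pathway. In sgg the signals were 265, 139.9 and 84.6, all in both lists, whereas in nkd they were 75.8, 62.6, 63.5 and 75.7, and 1 of 4 was in both. In spen the first 2 summits had 26.7 and 22.5 in replicate 1 but 68.8 and 75.8 in replicate 3. The third had 114 in replicate 1 and 109 in replicate 3. The list of sequence-specific regulators had 5 of 74, which were ush, heca, Mnt, luna and sbb. Of these, Mnt and the Krüppel-like factor luna bind DNA by sequence, while ush and sbb are known as cofactors. Chromatin regulators had 3 of 27, which were ph-p, Trl and osa. Over all protein-coding genes the share was 0.660%. Among genes with a peak it was 15.6% for signalling, 19.2% for sequence-specific regulators, 23.1% for chromatin regulators and 4.70% over all.

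Translational repressors had 2 of 15, brat, which is known as a tumour suppressor in larval brain, and Syp, and the clock list had 1 of 9, vri. All 8 summits in brat belonged to its 2 clusters, with signals from 63.7 to 150 in the cluster with 5 summits. In the cluster with 4, the 3 summits in brat had 102, 92.3 and 99.6. The remaining one, with 74.6, lay outside the gene near AsnRS. In vri, a repressor in the circadian clock, the summits had 179, 305 and 66.4, and the last was not in both lists. Actin and adhesion genes had 2 of 52, kirre and hts. CG32264 itself held 6 summits, the strongest of 568 at rank 20, and none in a cluster. Chaperones had 0 of 24. Beside these lists, the share over all protein-coding genes was 0.660%. Among genes with a peak it was 28.6% for translational repressors, 33.3% for the clock list, 10% for actin and adhesion and 4.70% over all. At least 1 cluster peak was held by 4 chaperone genes, Hsp23, Hsp26, Hsp27 and Hsp83, 16.7%, beside 212 of 13945 protein-coding genes, 1.52%. Hsp23, Hsp26 and Hsp27 held 1 cluster summit each and lie close together at the same cluster, so these genes are not separate cases. This cluster, named by Hsp23, had 172, 66.3 and 512 with all 3 summits at promoters.

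Genes that held a cluster were long. The median length by list ran from 2347 bp for chaperones to 25645 bp for ecdysone response, each above the 2166 bp of all protein-coding genes. Counting only summits inside the gene body, 64 protein-coding genes held 3 or more summits of 1 cluster. None of the 10461 genes under 5 kb did, against 0.931% of 2471 genes of 5 to 20 kb, 3.12% of 706 genes of 20 to 50 kb and 6.19% of 307 genes over 50 kb. Outside the 8 lists the share was 0.883% at 5 to 20 kb, 2.50% at 20 to 50 kb and 2.57% over 50 kb. It was thus nearly level above 20 kb in unlisted genes. Among genes over 50 kb, 12 of 35 in the 8 lists held 3 or more such summits, 34.3%, and 7 of the 272 others, 2.57%. The lists were chosen with earlier results of these data known, so this contrast is no independent support. The rise with gene length is in part built in, since the median cluster span was 4739 bp and a short gene cannot hold summits far apart. In 7 genes more than 1 cluster was hosted, led by shn, a zinc finger cofactor of Dpp signalling, with 11 summits in 3 clusters, followed by CG12535, CG1677, CHES-1-like, Tlk, brat and crp with 2 clusters each. In Tlk, the Tousled-like kinase gene, the summits of the stronger cluster had 421, 161, 117 and 77.2. The 3 clusters of shn had signals from 64.5 to 186, all in introns.

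**Figure D4:**
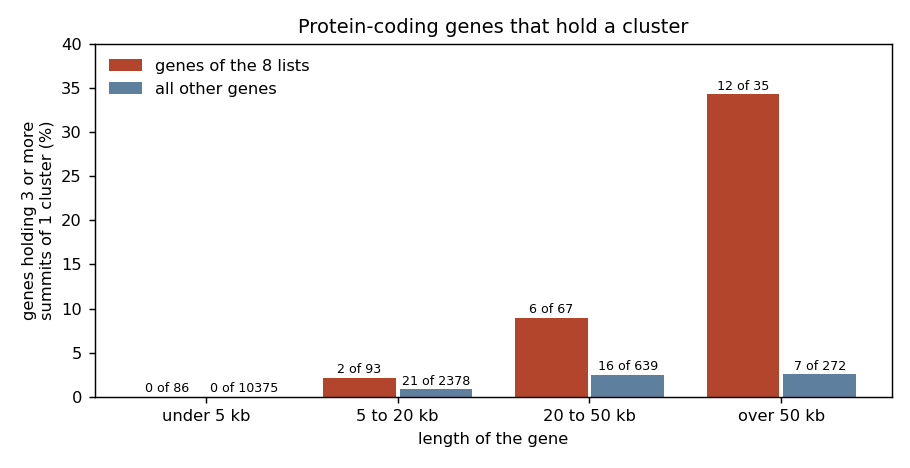
Percent of protein-coding genes whose body holds 3 or more summits of 1 cluster, by gene length, for genes of the 8 lists and all other genes, with counts above the bars. In genes over 50 kb the share is 34.3% in listed genes and 2.57% in others, and at 20 to 50 kb 8.96% and 2.50%. The lists were chosen with earlier results of these data known, so the contrast is no independent support.

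At cluster summits and at summits alone, 13 motifs were searched, with differences in share from -2.88 to 1.76 percentage points, clusters minus alone. Mean G and C content of these windows was 37.4% ± 6.50 in clusters (SD, n = 525 summits) and 36.7% ± 6.40 alone (n = 1391). It dipped at the summit in both classes, to 35.5% in clusters and 34.7% alone over the 50 bases before the summit, against 44.8% in clusters and 43.7% alone at 250 to 300 bases before it. TATCGATA was found in 1.71% of cluster windows and 3.59% of windows alone, beside 2.95% of all peaks and 5.45% of gene starts. At promoters those shares were 4.55% in clusters and 6.51% alone, and away from promoters 0.287% in clusters and 0.306% alone. GATA sites were found in 29.9% of cluster windows and 29.0% alone, beside 28.7% of all peaks and 22.3% of gene starts. The homeodomain core was found in 13.3% of cluster windows and 15.2% alone, beside 14.6% of all peaks and 9.66% of gene starts. The lowest of these was that of the A tract, AAAAAAA, in 22.3% of cluster windows and 25.2% alone, beside 25.5% of all peaks and 17.8% of gene starts. Away from promoters it was in 24.6% of cluster windows and 29.7% alone. The CA repeat, CACACACA, was in 6.10% of cluster windows and 4.46% alone, beside 4.71% of all peaks and 4.08% of gene starts. The Pho site, GCCAT, was in 25.7% of cluster windows and 25.02% alone, beside 24.8% of all peaks and 30.9% of gene starts, and at promoters in 30.7% of cluster windows and 24.8% alone. The other motifs, with differences from -0.967 to 1.18 points, were a long GAGA element (GAGAGAG), the E-box, the AP-1 site, the M1BP element, the Zelda site (CAGGTAG) and the TATA box (TATAAA).

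**Figure D5:**
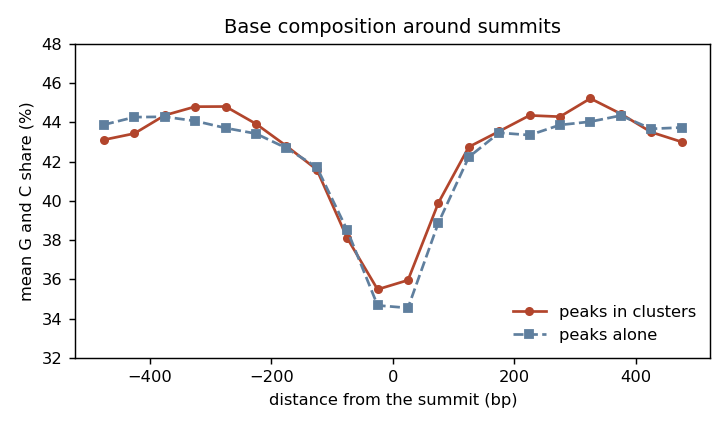
Mean share of G and C in 50 bp steps, in percent, by distance in bp from the summit for 525 peaks in clusters and 1391 peaks alone; the vertical axis does not start at 0. Both lines fall at the summit, to 35.5% in clusters and 34.7% alone just before it, against 44.8% in clusters and 43.7% alone 250 to 300 bases before it.

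Windows with a GAGA element ranked better in replicate 3 than in replicate 1 more often than windows without. Among cluster peaks with a partner in both lists, 96 of 148 with GAGAG, 64.9%, had the better rank in replicate 3, against 162 of 373 without it, 43.4%. Among peaks alone the shares were 52.2% of 366 with GAGAG and 32.5% of 1002 without. In clusters the median ranks of windows with GAGAG were 1319 in replicate 1 and 861 in replicate 3. Windows with GAGAG were also richer in G and C, at 40.2% against 36.2% without. Among cluster windows with G and C over the median of all peaks, 71.2% of 104 with GAGAG and 45.0% of 180 without ranked better in replicate 3. At or under that median it was 22 of 44 with GAGAG and 81 of 193 without. What sets the replicates apart was not tested.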

How the data were processed

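Peaks came from ChIP-seq of 2 biological replicates, 1 and 3, of 1 group. Per the labels, chromatin was sonicated to 200 to 800 bp. Peak lists were deposited on dm6 and dm3. Each list before IDR held 30000 peaks, and the authors' optimal set held 2546. The signal of a peak is the authors' deposited value, on each list's own scale, and was used to describe and rank peaks within a list. Not given in the sources used here were the aligner, the peak caller and their settings, and depth is unknown.

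Summits were chained on the 6 arms of dm6, and the members, gene lists and motifs were chosen with earlier results of these data known. Starts and genes were taken from Ensembl release 115 of the BDGP6 annotation, which uses the same assembly, and 281 of 283 listed genes matched. A location took the first of coding exon, 5 prime UTR, 3 prime UTR, non-coding exon, intron and intergenic. A cluster was named by the protein-coding gene that held more of its summits than any other, the longer gene on a tie. That gene could hold few of them, as BBS8 did with 1 of 6. Clusters with no summit in such a gene were named by the nearest start. Clusters named in the text were those with the most summits, highest signals, longest and shortest spans, highest weakest summit or a host in a list. Neighbours of the 5000 bp limit were named too, and other genes were named after their values were seen. Python 3.11.15, pandas 2.3.3, numpy 2.4.6 and scipy 1.17.1 were used, with 95% Clopper-Pearson intervals that cover counting error only. The chaining was tested on simulated data. No p-values were computed.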

Additional observations from a re-analysis of the deposited data

How the results depend on the processing

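Peaks in clusters numbered 239 with gaps of at most 2500 bp, 851 with 10000 bp, 237 with 4 or more summits, 142 with the stronger 50% of peaks and 231 with peaks of both top lists, against 525. Clusters numbered 67, 221, 49, 40 and 65 under the same alternatives, and the median span was 3003, 8476, 7403, 4548 and 4000 bp. With only the strongest summit kept within 800 bp, an alternative chosen after seeing the data, the span was 5757 bp, the promoter share of cluster peaks 30.3% and its difference from peaks alone -22.3 points. Values without a replicate are those of clusters built from the top list of the other replicate. Without a replicate, peaks in clusters numbered 463 to 607, clusters 130 to 159 and the median span 4622 to 4846.5 bp.

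The promoter share was 35.1% at 2500 bp, 38.9% at 10000 bp, 27.0% with 4 or more summits, 32.04% with peaks of both lists and 35.1% to 35.6% without a replicate. It was 24.95% within 250 bp of a start, 47.2% within 1000 bp and 30.5% for protein-coding starts. The difference was -16.7, -13.8, -26.0 and, with the stronger 50%, -16.8 points, -16.0 points within 1000 bp, and -19.5 to -16.4 points without a replicate. The signal ratio was 1.08 at 10000 bp, 1.18 with 4 or more summits, 1.01 with the stronger 50%, 1.05 with peaks of both lists, 1.07 to 1.09 without a replicate and 1.28 by the signal of replicate 3.

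The difference in peaks found in both replicates was -1.29 points without replicate 1 and 11.2 without replicate 3, a reversal whose cause was not tested. Without a replicate the measure also changed, to peaks of 1 list found in the other. The difference could not be had for peaks of both lists, which are all found in both. The intron difference was 8.70 points with 4 or more summits, 5.03 with peaks of both lists, 9.09 to 10.8 without a replicate and, reversed, -1.42 with the stronger 50%; the cause was not tested. Clusters with all summits in 1 gene made up 35.7% at 10000 bp. The other 46 values were counts within 1.5 times or moved by less than the SD between the values of the 2 replicate lists. That SD was narrow for some results, such as 0.386 points for the promoter share and 0.0124 for the signal ratio. For other results it was wide. For the share found in both replicates that SD was 8.84 points, and the difference was 3.64 with the stronger 50% and 6.68 with an overlap of 50%. For G and C it was 0.811 points, and the difference, 0.712, was 1.30 without replicate 1 and 0.153 without replicate 3. No paired analysis was possible because there is 1 group and no test. Peak lists limit these results: reads and depth are unknown, and summits under 800 bp apart may not be separate sites.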
